A study of Mus musculus with 2 samples.

Results

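Cycling macrophages in these tumours were 329 single cells of 22044 kept, 32 of them in the library labelled Ythdf2 cKO and 297 in the library labelled WT. They were chosen by their RNA. A kept barcode had at least 200 genes detected and at most 10% of its unique molecular identifiers (UMIs, each a captured RNA molecule) from mitochondrial genes. A cycling macrophage then needed, per 10000 UMIs, at least 5 of the complement genes C1qa, C1qb and C1qc, at least 1 of the growth factor receptor gene Csf1r, at most 1 of the T cell receptor complex genes Cd3d, Cd3e and Cd3g, under 5 of Mmp12 and Arg1, and at least 5 of the proliferation genes Mki67, Top2a, Birc5 and Cenpf. Levels of these genes are part of the choice and are given as a description.

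Macrophages in tissues come from circulating monocytes or from resident cells that renew themselves by division, largely under the growth factor CSF1. A dividing cell first licenses its replication origins and copies its DNA in S phase, under E2F factors, and then makes the spindle and the mitotic kinases in G2 and M phase, under the MuvB complex with B-MYB and FOXM1. Tumour macrophages range from recently arrived cells with monocyte genes, such as Ly6c2 and Ccr2, to mature cells with scavenger receptors, such as Mrc1 and Stab1. YTHDF2 is a cytoplasmic protein that binds RNA methylated at the N6 position of adenosine (m6A) and promotes its decay.

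CD45+ immune cells were sorted from tumours of C57BL/6 mice, 1 library labelled Ythdf2 cKO and 1 labelled WT, and captured with a droplet-based 5′ kit. The labels used here name no Cre driver, tumour model, age or number of mice. With 1 library in each group the differences have no replicate check and no test. Each interval below is an exact 95% interval for counting error, which takes UMIs or cells as independent and holds nothing of the spread between mice.

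Ythdf2 RNA was higher in the library labelled Ythdf2 cKO. In the summed cycling macrophages Ythdf2 was at 489 CPM (438 to 544) in the cells labelled cKO and 95.7 CPM (87.9 to 104) in those labelled WT, in counts per 1000000 UMIs (CPM). In non-cycling macrophages it was at 447 CPM in the cells labelled cKO and 68.4 CPM in those labelled WT. The counts cover the whole gene and come from a 5′ kit, and the sources used here do not say which exons the allele removes, so this level may lie outside the deleted part and then checks nothing. Because it runs against what the genotype names, the groups are called by their labels, and every direction below rests on those labels. The paralogous reader gene Ythdf1 was at 52.6 CPM in the cells labelled cKO and 35.7 CPM in those labelled WT, and Ythdf3 was at 30.7 CPM in the cells labelled cKO and 36.1 CPM in those labelled WT.

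The summed cycling macrophages held 685052 UMIs in the library labelled cKO and 5734862 in the library labelled WT. The median cell had 12182.5 UMIs in the library labelled cKO and 18516 in the library labelled WT. Few cells carried much of the smaller sum, as the 5 deepest gave 43.5% of the UMIs in the library labelled cKO and 5.40% in the library labelled WT. Of the 43 barcodes that occur in both libraries, 0 were cycling macrophages. The 4 proliferation genes together gave a single UMI in 1 cell in the library labelled cKO and 7 in the library labelled WT, and 10 or more UMIs in 20 cells in the library labelled cKO and 244 in the library labelled WT. Just inside the proliferation threshold, at 5 to under 6 per 10000, stood 6 cells in the library labelled cKO and 27 in the library labelled WT. Just outside it, at 4 to under 5, stood 7 macrophages in the library labelled cKO and 23 in the library labelled WT.

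The genes of the gate were at like levels. C1qa, a chain of the complement trigger C1q, was at 3211 CPM in the cells labelled cKO and 3168 CPM in those labelled WT, and Csf1r was at 368 CPM in the cells labelled cKO and 328 CPM in those labelled WT. Mki67, whose protein coats mitotic chromosomes, was at 464 CPM in the cells labelled cKO and 561 CPM in those labelled WT. Top2a, the topoisomerase gene of chromosome separation, was at 410.2 CPM in the cells labelled cKO and 535 CPM in those labelled WT. Macrophage genes that the gate did not use were also present. Adgre1, which encodes F4/80, was at 239 CPM in the cells labelled cKO and 284 CPM in those labelled WT, with a UMI in 25 cells labelled cKO and 266 labelled WT. The lysosomal gene Cd68 was at 688 CPM in the cells labelled cKO and 856 CPM in those labelled WT.

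Cycling macrophages were a smaller share of the library labelled cKO. They were 0.324% (0.222 to 0.458) of 9865 cells in the library labelled cKO and 2.44% (2.17 to 2.73) of 12179 cells in the library labelled WT, a ratio of 0.133 (0.0893 to 0.192). All C1q macrophages, whatever their proliferation sum, were 4.62% (4.22 to 5.06) of 9865 cells in the library labelled cKO and 10.2% (9.71 to 10.8) of 12179 cells in the library labelled WT. Among these macrophages the cycling cells were 7.02% (4.85 to 9.76) of 456 cells in the library labelled cKO and 23.8% (21.5 to 26.3) of 1248 cells in the library labelled WT, a ratio of 0.295 (0.198 to 0.425). With every cell thinned to 5000 UMIs, which left out 48 shallower macrophages in the library labelled cKO and 208 in the library labelled WT, the shares were 4.83% (2.84 to 7.62) of 352 cells in the library labelled cKO and 24.7% (22.1 to 27.6) of 978 cells in the library labelled WT. Macrophages with a proliferation sum from 1 to under 5 numbered 30 cells in the library labelled cKO and 257 in the library labelled WT. A stricter gate allowed no raw UMI of lymphoid, neutrophil, melanocytic or plasmacytoid markers and at most 1 of Ly6c2. Under it, 12 of 60 macrophages were cycling in the library labelled cKO and 110 of 381 in the library labelled WT. The log2 ratio of cycling shares among macrophages was then -0.53, against -1.76 here. Limits on raw UMIs depend on depth, and the part of depth in this change was not tested.

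Lower cycling shares in the library labelled cKO were not particular to C1q macrophages. Mmp12 and Arg1 macrophages, which the gate keeps apart, had 0 cycling cells of 74 in the library labelled cKO, which allows a share of up to 4.05% at a floor of 3 cells (upper limit of the exact interval 4.86%), and 30 of 273 (11.0%) in the library labelled WT. Natural killer (NK) cells were cycling in 1.89% (1.24 to 2.75) of 1378 cells in the library labelled cKO and 3.81% (2.70 to 5.21) of 971 cells in the library labelled WT. Their ratio was 0.495 (0.288 to 0.840), though the intervals of the shares overlap slightly. CD8 T cells were cycling in 11.5% (10.1 to 13.1) of 1802 cells in the library labelled cKO and 9.72% (7.58 to 12.2) of 669 cells in the library labelled WT, with overlapping intervals. CD4 T cells were cycling in 9.82% (6.63 to 13.9) of 285 cells in the library labelled cKO and 9.48% (6.62 to 13.1) of 348 cells in the library labelled WT. Ly6c2 monocytes were cycling in 0.818% (0.423 to 1.42) of 1467 cells in the library labelled cKO and 1.44% (0.806 to 2.36) of 1045 cells in the library labelled WT. The monocyte ratio was 0.570 (0.244 to 1.30), and the intervals of the shares overlap in both classes.

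**Figure D1:**
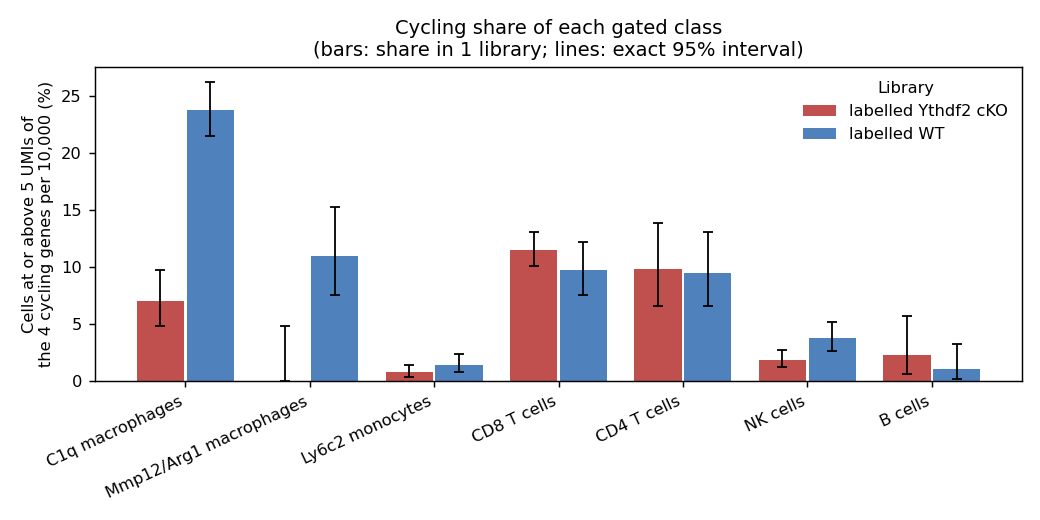
Share of each gated class (x axis) with at least 5 UMIs of the 4 proliferation genes per 10000, in percent (y axis), for the library labelled cKO (left bar) and the library labelled WT (right bar), with exact 95% intervals for counting error. C1q macrophages stand at 7.02% in the library labelled cKO and 23.8% in the library labelled WT, and CD4 T cells at 9.82% in the library labelled cKO and 9.48% in the library labelled WT.

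Promoters of the cell cycle genes carry letters known from cell cycle control, and 3 are shown because mitotic and replication genes are compared below. RefSeq (GRCm38.p6) gave the 250 bases upstream of the start of 27025 genes. The CHR element TTTGAA, a MuvB target, the CCAAT box, bound by NF-Y, and the E2F motif TTTNNCGC were searched on both strands. Capitals mark TTTGAA and CCAAT on either strand in Cdk1 (chr10:69352913-69353162, minus strand), the kinase gene that starts mitosis, and in Cdc20 (chr4:118437344-118437593, minus strand), which activates the anaphase promoting complex.
Cdk1: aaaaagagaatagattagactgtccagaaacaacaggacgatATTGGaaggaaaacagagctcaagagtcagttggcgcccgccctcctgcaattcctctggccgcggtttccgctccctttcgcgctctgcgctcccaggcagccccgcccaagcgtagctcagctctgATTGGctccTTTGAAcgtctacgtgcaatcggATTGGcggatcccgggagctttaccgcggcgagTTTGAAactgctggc
Cdc20: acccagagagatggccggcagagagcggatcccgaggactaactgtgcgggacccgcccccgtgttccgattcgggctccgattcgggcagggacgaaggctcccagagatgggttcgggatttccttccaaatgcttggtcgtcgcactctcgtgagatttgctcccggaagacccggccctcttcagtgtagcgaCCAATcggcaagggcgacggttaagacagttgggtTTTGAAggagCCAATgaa
In Mcm6 (chr1:128359706-128359955, minus strand), which encodes a subunit of the replicative helicase, capitals mark the E2F motif on either strand, with overlapping matches joined.
Mcm6: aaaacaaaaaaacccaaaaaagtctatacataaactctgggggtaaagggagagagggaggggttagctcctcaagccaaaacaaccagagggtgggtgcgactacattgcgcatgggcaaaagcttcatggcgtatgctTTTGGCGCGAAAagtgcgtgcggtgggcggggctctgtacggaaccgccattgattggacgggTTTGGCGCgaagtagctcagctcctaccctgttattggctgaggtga
Of the 90 measured genes in the lists for G2/M kinases, spindle, checkpoint and cytokinesis, 74 had a promoter in the table. TTTGAA was in 32.4% of them, against 16.3% of all promoters, and CCAAT was in 66.2%, against 34.5%. Of the 45 genes for licensing and DNA synthesis, 36 had a promoter, and TTTNNCGC was in 19.4% of them, against 4.39% of all promoters. CCAAT was in 58.3% of these promoters too, and TTTNNCGC was in 13.5% of the G2/M and mitosis promoters. Neither was thus particular to its group of lists. A match describes letters and is not a measured binding site.

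Set against non-cycling C1q macrophages of the same library (proliferation sum under 1; 394 cells in the library labelled cKO and 694 in the library labelled WT), cycling macrophages were high in mitotic genes, as their choice implies. A gene was counted when its summed level in cycling macrophages was at least 10 CPM in either library. It was called when it differed at least 1.5-fold with 1 CPM added to each level. Genes under that limit in cycling cells could not enter, whatever their level in non-cycling cells. This favours higher over lower calls in the shares and medians of cycling over non-cycling cells. Of 8372 such genes, 28.5% were called higher in cycling cells in the library labelled cKO, 11.6% in the library labelled WT, and 9.79% in both. All 20 G2/M kinase, cyclin and phosphatase genes and all 34 spindle and kinetochore genes were called higher in both. The median log2 ratio of the spindle list was 4.33 in the cells labelled cKO and 3.67 in those labelled WT, where that of all genes was 0.22 in the cells labelled cKO and 0.08 in those labelled WT. Hmmr, a spindle assembly gene, had a log2 ratio of 6.09 in the cells labelled cKO and 5.64 in those labelled WT. Ube2c, the ubiquitin-conjugating enzyme gene of the anaphase promoting complex, had 6.07 in the cells labelled cKO and 4.77 in those labelled WT, and Cenpe, a kinetochore motor gene, had 5.72 in the cells labelled cKO and 5.50 in those labelled WT. Replication licensing genes had a median of 2.37 in the cells labelled cKO and 1.07 in those labelled WT.

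Identity genes also differed from non-cycling macrophages of the same library. Of the same 8372 genes, 11.5% were called lower in cycling cells in the library labelled cKO and 6.93% in the library labelled WT. Of 14 classical monocyte genes, 13 were called lower in cycling cells in the library labelled cKO and 13 in the library labelled WT. The median log2 ratio of cycling over non-cycling cells was -1.46 in the cells labelled cKO and -2.05 in those labelled WT for the classical monocyte list and -0.76 in the cells labelled cKO and -1.73 in those labelled WT for the MHC class II list. It was -0.70 in the cells labelled cKO and -0.78 in those labelled WT for the interferon gamma response list and 0.09 in the cells labelled cKO and -0.05 in those labelled WT for the scavenger list. At 5000 UMIs a cell, Ly6c2 was detected in 37.5% of the cells labelled cKO and 19.3% of those labelled WT among cycling macrophages. Among non-cycling macrophages it was detected in 86.4% of the cells labelled cKO and 51.2% of those labelled WT.

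Most single cells held more UMIs of the G2/M list than of the S phase list in both libraries. After thinning to 5000 UMIs, 24 cells labelled cKO and 264 labelled WT remained, while 8 cells in the library labelled cKO and 33 in the library labelled WT were shallower. A cell labelled cKO had a median of 7.5 (1 to 30) UMIs of the S phase list and 30.5 (7 to 55) of the G2/M list without the gate genes. A cell labelled WT had a median of 8 (1 to 43) UMIs of the S phase list and 32.5 (7 to 84) of the G2/M list. More UMIs of the S phase list than of the G2/M list were found in 8.33% (1.03 to 27.0) of 24 cells in the library labelled cKO and 14.4% (10.4 to 19.2) of 264 cells in the library labelled WT, so the intervals overlap. The log2 ratio of these shares was -0.79, and it turned to 1.05 under the stricter gate, with 2 of 6 cells labelled cKO and 15 of 93 labelled WT, and was -1.97 with a proliferation sum of at least 2. The gate genes peak in G2 and M phase, which favours such cells in the choice. The G2/M list also summed higher than the S phase list in non-cycling macrophages. It was at 1225 CPM against 490 CPM in the cells labelled cKO, and 1333 CPM against 933 CPM in those labelled WT. The share with more S phase UMIs is thus no measure of the share of cells in S phase. Across cells, which share a library and a fixed depth, the Pearson correlation of the S and G2/M sums was 0.07 over 24 cells labelled cKO and -0.21 over 264 cells labelled WT.

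**Figure D2:**
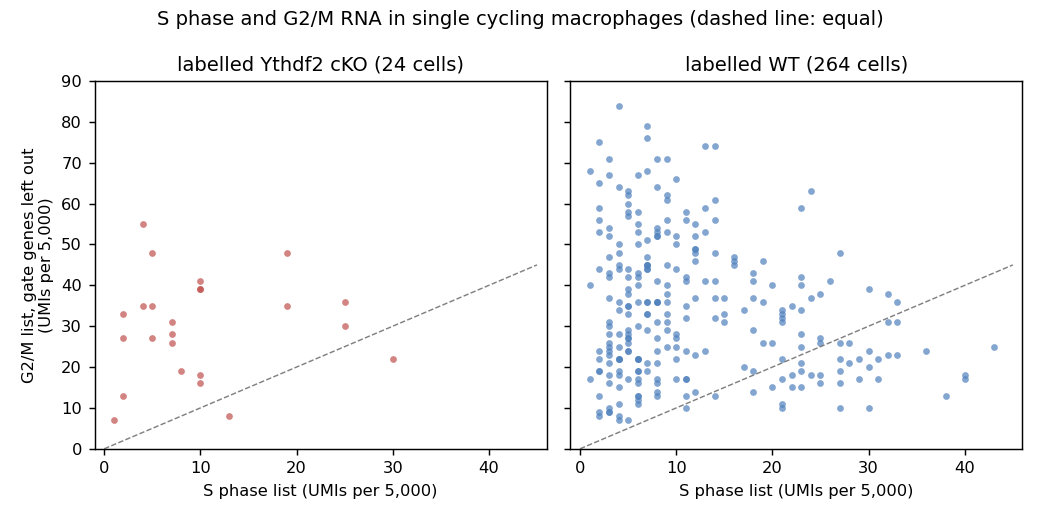
UMIs of the S phase list (x axis) and of the G2/M list without gate genes (y axis) in each cycling macrophage thinned to 5000 UMIs, for the library labelled cKO (left, 24 cells) and the library labelled WT (right, 264 cells). Cells under the dashed line of equal sums, 2 on the left and 38 on the right, held more S phase than G2/M RNA.

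Between the libraries, most mitotic genes of cycling macrophages differed less than 1.5-fold, and replication licensing genes were more often lower in the library labelled cKO. The gate sets the same threshold on mitotic genes in both libraries, so like mitotic levels are in part its result. Over all 8372 genes, 14.2% were called higher and 11.6% lower in the cells labelled cKO, with a median log2 ratio (labelled cKO over labelled WT) of -0.01. Of 20 G2/M kinase, cyclin and phosphatase genes, 0 were called higher and 3 lower in the cells labelled cKO, with a median log2 ratio of -0.22. That median was -0.97 under the stricter gate, -0.58 with cells thinned to 5000 UMIs and -0.52 with every cell weighted equally. Cdk1 was at 174 CPM in the cells labelled cKO and 171 CPM in those labelled WT, and the mitotic kinase gene Plk1 was at 96.3 CPM in the cells labelled cKO and 96.3 CPM in those labelled WT. Of 34 spindle and kinetochore genes, 0 were called higher and 3 lower in the cells labelled cKO, with a median log2 ratio of -0.22. The checkpoint list had a median of -0.18 and the cytokinesis list one of -0.22.

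Of 17 replication licensing genes, 0 were called higher and 9 lower in the cells labelled cKO, with a median log2 ratio of -0.59. Mcm6, whose promoter is shown above, was at 52.6 CPM in the cells labelled cKO and 121 CPM in those labelled WT (log2 ratio -1.19, -1.73 to -0.72). Mcm3, another helicase subunit gene, was at 64.2 CPM in the cells labelled cKO and 125 CPM in those labelled WT (log2 ratio -0.95, -1.43 to -0.52). Mcm5 differed less, at 78.8 CPM in the cells labelled cKO and 103 CPM in those labelled WT (log2 ratio -0.38). Orc6, which encodes a subunit of the origin recognition complex, was at 13.1 CPM in the cells labelled cKO and 42.2 CPM in those labelled WT (log2 ratio -1.61, -2.83 to -0.73). In non-cycling macrophages, where 10.1% of genes were called higher and 14.4% lower, and the median over all genes was -0.10, the licensing list counted 0 higher and 10 lower of 12 (median -1.55). Of 28 DNA synthesis and nucleotide supply genes, 0 were called higher and 7 lower in the cells labelled cKO, with a median log2 ratio of -0.31. Dut, which keeps uracil out of DNA, was at 36.5 CPM in the cells labelled cKO and 102 CPM in those labelled WT (log2 ratio -1.46, -2.13 to -0.91), while Tk1, the S phase thymidine kinase gene, was at 147 CPM in the cells labelled cKO and 152 CPM in those labelled WT. Of 16 chromatin genes of S phase, 0 were called higher and 3 lower in the cells labelled cKO, with a median log2 ratio of -0.25. Of 17 homologous recombination genes, 2 were called higher and 7 lower in the cells labelled cKO, with a median log2 ratio of -0.19.

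G1/S and arrest genes were mixed. Of 19 G1/S cyclin and E2F genes, 2 were called higher and 5 lower in the cells labelled cKO, with a median log2 ratio of -0.18. Ccnd1, the cyclin gene that answers to growth factors, was at 359 CPM in the cells labelled cKO and 357 CPM in those labelled WT, and Ccnd3 was at 105 CPM in the cells labelled cKO and 57.0 CPM in those labelled WT (log2 ratio 0.87). Of 5 measured CDK inhibitor genes, 1 was called higher and 1 lower in the cells labelled cKO, with a median log2 ratio of 0.31. That median was -0.31 with every cell weighted equally, -0.37 with no filter on low levels and -0.95 under the stricter gate. The gene called higher was Cdkn1a, which encodes the CDK inhibitor p21. Cdkn1a was at 495 CPM in the cells labelled cKO and 279.9 CPM in those labelled WT (log2 ratio 0.82, 0.65 to 0.99). Of 15 p53 target genes, Cdkn1a included, 9 were called higher and 1 lower in the cells labelled cKO, with a median log2 ratio of 0.68, against 2 higher and 2 lower of 13 (median 0.10) in non-cycling macrophages. Mdm2, which encodes the ligase that degrades p53, was at 150.4 CPM in the cells labelled cKO and 87.9 CPM in those labelled WT (log2 ratio 0.77), and Trp53 itself was at 55.5 CPM in the cells labelled cKO and 56.0 CPM in those labelled WT. Zmat3 and Trp53inp1, also called higher, rested on 10 and 11 UMIs in the cells labelled cKO.

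**Figure D3:**
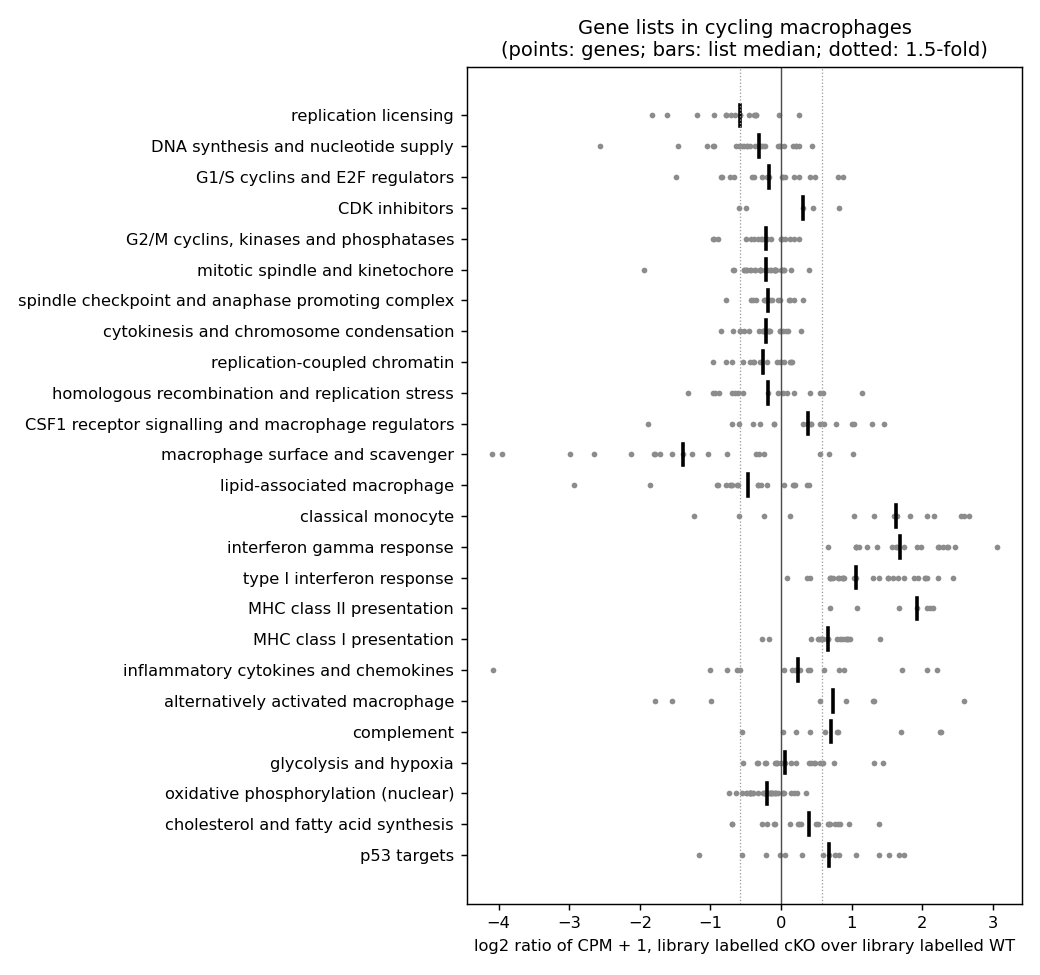
log2 ratio of CPM plus 1 in cycling macrophages, library labelled cKO over library labelled WT (x axis), for the measured genes (points) of each list (y axis), with the list median (bar) and the 1.5-fold limits (dotted). Genes with 0 UMIs in a library count in the median but are not drawn. The spindle list has a median of -0.22, the scavenger list -1.39, the interferon gamma response list 1.69 and the MHC class II list 1.92.

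Scavenger genes of mature macrophages were mostly lower in the library labelled cKO. Of 19 macrophage surface and scavenger genes, 2 were called higher and 13 lower in the cells labelled cKO, with a median log2 ratio of -1.39, against 3 higher and 14 lower of 20 (median -1.57) in non-cycling macrophages. Mrc1, the mannose receptor gene, was at 178 CPM in the cells labelled cKO and 617 CPM in those labelled WT (log2 ratio -1.79, -2.07 to -1.53). After thinning it was detected in 33.3% of the cells labelled cKO and 79.9% of those labelled WT, against 0.938% of NK cells labelled cKO and 5.42% of those labelled WT, a class that should lack it. Stab1, a scavenger receptor gene, was at 188 CPM in the cells labelled cKO and 496 CPM in those labelled WT (log2 ratio -1.39). Pf4, which encodes the chemokine platelet factor 4, was at 229 CPM in the cells labelled cKO and 1437 CPM in those labelled WT (log2 ratio -2.64, -2.89 to -2.42). After thinning Pf4 was detected in 41.7% of the cells labelled cKO and 89.8% of those labelled WT, against 1.99% of NK cells labelled cKO and 23.6% of those labelled WT. The NK shares of Mrc1 and Pf4 thus moved with the library too, and their part in the ratios was not tested. Igf1, a growth factor gene, had 3 UMIs in the cells labelled cKO and was at 4.38 CPM in the cells labelled cKO and 90.8 CPM in those labelled WT (log2 ratio -4.09, -6.66 to -2.82). With every cell weighted equally its ratio was -1.51. Fcgr1, the high-affinity IgG receptor gene, ran the other way, at 514 CPM in the cells labelled cKO and 253 CPM in those labelled WT (log2 ratio 1.02).

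Lipid-associated macrophage genes were lower by less. Of 20, 0 were called higher and 10 lower in the cells labelled cKO, with a median log2 ratio of -0.47, and the median in non-cycling macrophages was -0.94. Apoe, which carries lipids out of cells, was at 1886 CPM in the cells labelled cKO and 3495 CPM in those labelled WT (log2 ratio -0.89). Trem2, a lipid receptor gene, was at 327 CPM in the cells labelled cKO and 542 CPM in those labelled WT (log2 ratio -0.73). Fabp5, which encodes a fatty acid binding protein, was at 239 CPM in the cells labelled cKO and 869 CPM in those labelled WT (log2 ratio -1.85, -2.09 to -1.63).

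Regulators of macrophage identity and CSF1 signalling differed in both directions. Of 20, 6 were called higher and 3 lower in the cells labelled cKO, with a median log2 ratio of 0.39, which turned to -0.043 under the stricter gate. Cebpb, a transcription factor gene of inflammatory myeloid cells, was at 673 CPM in the cells labelled cKO and 329 CPM in those labelled WT (log2 ratio 1.03). Bhlhe40 was at 197 CPM in the cells labelled cKO and 71.5 CPM in those labelled WT (log2 ratio 1.45), and its relative Bhlhe41 was at 8.76 CPM in the cells labelled cKO and 34.9 CPM in those labelled WT (log2 ratio -1.88). Maf, a transcription factor gene of mature macrophages, was at 331 CPM in the cells labelled cKO and 501 CPM in those labelled WT (log2 ratio -0.60).

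Classical monocyte genes were mostly higher in the library labelled cKO. Of 14, 10 were called higher and 2 lower in the cells labelled cKO, with a median log2 ratio of 1.62, against 0.68 under the stricter gate, which limits Ly6c2 itself. Ly6c2, the gene behind the Ly6C surface marker, was at 417 CPM in the cells labelled cKO and 92.2 CPM in those labelled WT (log2 ratio 2.17, 1.97 to 2.39). Ccr2, the receptor gene that brings monocytes out of the marrow, was at 365 CPM in the cells labelled cKO and 117 CPM in those labelled WT (log2 ratio 1.63), and Plac8 was at 985 CPM in the cells labelled cKO and 235 CPM in those labelled WT (log2 ratio 2.06). Lyz2, the lysozyme gene of macrophages and monocytes, was at 1399.9 CPM in the cells labelled cKO and 3297 CPM in those labelled WT (log2 ratio -1.24). The summed list, in which Lyz2 weighs most, was at 4409.9 CPM in the cells labelled cKO and 4209 CPM in those labelled WT.

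Interferon genes were mostly higher in the library labelled cKO. Of 20 interferon gamma response genes, 20 were called higher and 0 lower in the cells labelled cKO, with a median log2 ratio of 1.69, and of 29 type I interferon response genes, 26 were called higher and 0 lower in the cells labelled cKO, with a median log2 ratio of 1.07. Cxcl9, a chemokine gene that attracts T cells, was at 880.2 CPM (811 to 953) in the cells labelled cKO and 159 CPM (149 to 169.9) in those labelled WT (log2 ratio 2.46, 2.32 to 2.62). After thinning it was detected in 54.2% of the cells labelled cKO and 19.3% of those labelled WT, against 5.39% of NK cells labelled cKO and 5.42% of those labelled WT. Gbp2, which encodes a guanylate-binding protein, was at 292 CPM in the cells labelled cKO and 61.0 CPM in those labelled WT (log2 ratio 2.24), and Isg15, an antiviral ubiquitin-like gene, was at 152 CPM in the cells labelled cKO and 35.6 CPM in those labelled WT (log2 ratio 2.06). Cxcl10 differed less, at 820.4 CPM in the cells labelled cKO and 517 CPM in those labelled WT (log2 ratio 0.67), and the antiviral gene Rsad2 was at 177 CPM in the cells labelled cKO and 167 CPM in those labelled WT. In non-cycling macrophages the medians were 1.54 for the interferon gamma list and 1.34 for the type I list. Under the stricter gate, which kept 12 cells labelled cKO and 110 labelled WT, the interferon gamma median was 0.61, the type I median turned to -0.48 and Cxcl9 to -1.82.

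The promoter of Gbp2 (chr3:142620413-142620662, plus strand) is shown because it holds letters through which interferon regulatory factors are known to act. The interferon-stimulated response element was searched on both strands as GAAA, any 2 bases and GAAA, and capitals mark its match on the other strand.
Gbp2: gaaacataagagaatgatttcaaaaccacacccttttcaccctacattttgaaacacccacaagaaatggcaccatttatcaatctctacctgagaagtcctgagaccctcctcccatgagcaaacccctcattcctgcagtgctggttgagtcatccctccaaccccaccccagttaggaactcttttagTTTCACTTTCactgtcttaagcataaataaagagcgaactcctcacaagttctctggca
Of the 20 interferon gamma genes, 16 had a promoter in the table, and 68.8% of those held it, against 3.04% of all promoters.

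Antigen presentation genes were higher too. Of 11 MHC class II presentation genes in the data, 7 reached 10 CPM in either library. Of these 7, 7 were called higher and 0 lower in the cells labelled cKO, with a median log2 ratio of 1.92. The median was 1.08 with no filter on low levels, 0.94 in non-cycling macrophages and 0.64 under the stricter gate. H2-Aa, a class II alpha chain gene, was at 2080.1 CPM in the cells labelled cKO and 483 CPM in those labelled WT (log2 ratio 2.10, 2.01 to 2.20). Cd74, the invariant chain gene, was at 5103 CPM in the cells labelled cKO and 1347 CPM in those labelled WT (log2 ratio 1.92). Ciita, the activator of class II genes, was at 92.0 CPM in the cells labelled cKO and 22.5 CPM in those labelled WT (log2 ratio 1.98). After thinning, a cell labelled cKO had a median of 45.5 (2 to 171) UMIs of H2-Aa, H2-Ab1, H2-Eb1 and Cd74 together, against 4 (0 to 147) in a cell labelled WT, so the ranges overlap. Of 20 MHC class I presentation genes, 13 were called higher and 0 lower in the cells labelled cKO, with a median log2 ratio of 0.67.

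Summed interferon response levels were higher in cells with Ly6c2 than in cells without it, with the larger gap in the library labelled cKO. After thinning, Ly6c2 was found in 37.5% (18.8 to 59.4) of 24 cells in the library labelled cKO and 19.3% (14.7 to 24.6) of 264 cells in the library labelled WT. Without thinning, it was found in 62.5% of 32 cells in the library labelled cKO and 32.0% of 297 cells in the library labelled WT. The division follows the thinned counts, while the CPM below sum all UMIs of the cells. Some cells counted as without Ly6c2 therefore held it at full depth. Mouse NK cells express Ly6c2 themselves and give no background for it, so the part of free RNA in this division was not tested. Cxcl9 was at 1711 CPM (1569 to 1862) with and 165 CPM (126 to 214) without Ly6c2 among the cells labelled cKO, and 130.4 CPM (112 to 152) with and 169.6 CPM (158 to 182) without Ly6c2 among the cells labelled WT. Cells without Ly6c2 thus had overlapping Cxcl9 intervals in the 2 libraries, though few cells carried these sums. Of the 72 thinned Cxcl9 UMIs in the 9 cells with Ly6c2 labelled cKO, 68 came from 4 cells, and 3 cells had 0. Of the 20 in the 15 cells without Ly6c2 labelled cKO, 17 came from 4 cells, and 8 cells had 0. Of the 185 in the 213 cells without Ly6c2 labelled WT, 100 came from 4 cells, and 173 cells had 0. Gbp2 was at 556 CPM with and 48.5 CPM without Ly6c2 among the cells labelled cKO, and 89.0 CPM with and 52.8 CPM without Ly6c2 among the cells labelled WT. The summed interferon gamma list was at 6764 CPM with and 1321 CPM without Ly6c2 among the cells labelled cKO, and at 1480.2 CPM with and 1347 CPM without it among the cells labelled WT. The summed type I list was at 4916 CPM with and 1601 CPM without Ly6c2 among the cells labelled cKO, and 1795 CPM with and 1305 CPM without Ly6c2 among the cells labelled WT. Per thinned cell without Ly6c2, the median of the interferon gamma list was still higher, at 7 UMIs in cells labelled cKO and 4 in those labelled WT, and that of the type I list was 7 UMIs in cells labelled cKO and 5 in those labelled WT.

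**Figure D4:**
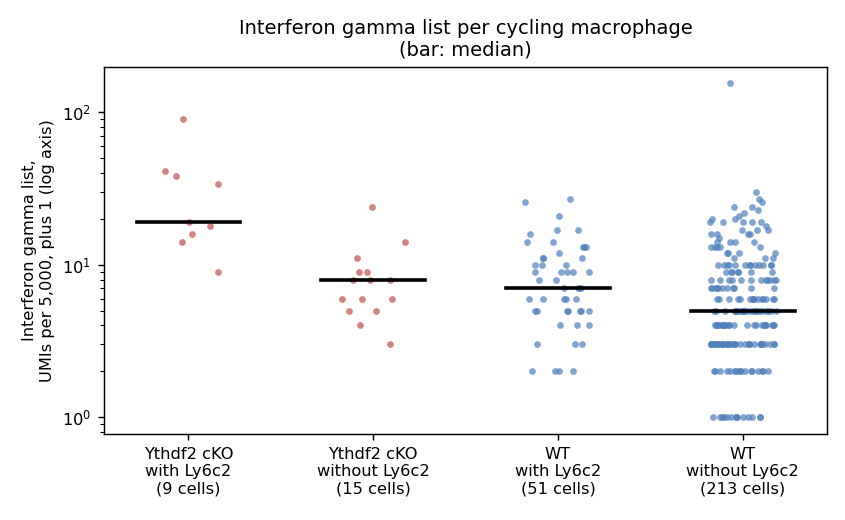
UMIs of the interferon gamma list in each cycling macrophage thinned to 5000 UMIs, plus 1 on a log axis (y axis), for cells with and without a Ly6c2 UMI in the library labelled cKO and the library labelled WT, with medians as bars. The medians are 18 and 7 UMIs with and without Ly6c2 in the library labelled cKO, and 6 and 4 in the library labelled WT.

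Other differences stood on both sides of that division. H2-Aa was at 3249.9 CPM with and 1024 CPM without Ly6c2 among the cells labelled cKO, and 964 CPM with and 343 CPM without Ly6c2 among the cells labelled WT. Mrc1 was at 124 CPM with and 228 CPM without Ly6c2 among the cells labelled cKO, and 545 CPM with and 638 CPM without Ly6c2 among the cells labelled WT. Pf4 was at 156 CPM with and 297 CPM without Ly6c2 among the cells labelled cKO, and 1150.5 CPM with and 1524 CPM without Ly6c2 among the cells labelled WT. These 3 genes differed between the libraries whether or not Ly6c2 was found after thinning. Ythdf2 was at 385 CPM with and 602 CPM without Ly6c2 among the cells labelled cKO, and 76.7 CPM with and 98.9 CPM without Ly6c2 among the cells labelled WT. The cells with Ly6c2 were deeper, with a median of 33776 UMIs against 12453 without it among the cells labelled cKO, and 24232 against 19403 among those labelled WT, and the part of depth in the division was not tested.

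Inflammatory genes were divided. Of 18, 6 were called higher and 5 lower in the cells labelled cKO, with a median log2 ratio of 0.24, which turned to -0.40 under the stricter gate. Cxcl3, at 0 UMIs in the cells labelled cKO, counts in that median, which is the same with Cxcl3 at its counting bound. Il1b was at 391 CPM in the cells labelled cKO and 92.6 CPM in those labelled WT (log2 ratio 2.07), and Ptgs2, a prostaglandin synthesis gene, was at 193 CPM in the cells labelled cKO and 58.4 CPM in those labelled WT (log2 ratio 1.70). Cxcl1, a chemokine gene for neutrophils, was at 10.2 CPM in the cells labelled cKO and 188 CPM in those labelled WT (log2 ratio -4.08, -5.52 to -3.15), and its ratio was -1.13 with the thresholds after C1q read as raw UMIs. Cxcl2 was at 1579 CPM in the cells labelled cKO and 2369.5 CPM in those labelled WT (log2 ratio -0.58), and Ccl4 was at 1025 CPM in the cells labelled cKO and 1747 CPM in those labelled WT (log2 ratio -0.77). Ccl2, which attracts monocytes, was at 2416 CPM in the cells labelled cKO and 2098 CPM in those labelled WT. Of 8 genes of alternative activation, 4 were called higher and 3 lower in the cells labelled cKO, with a median log2 ratio of 0.74, which turned to -0.24 with no filter on low levels. Of 10 complement genes outside the gate, 6 were called higher and 0 lower in the cells labelled cKO, with a median log2 ratio of 0.70, among them Cfb, the factor B gene, at 40.9 CPM in the cells labelled cKO and 7.85 CPM in those labelled WT (log2 ratio 2.24).

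Metabolic lists differed less. Of 36 nuclear oxidative phosphorylation genes, 0 were called higher and 2 lower in the cells labelled cKO, with a median log2 ratio of -0.20. Of 23 glycolysis and hypoxia genes, 4 were called higher and 0 lower in the cells labelled cKO, with a median log2 ratio of 0.06, with Gapdh at 2394 CPM in the cells labelled cKO and 2492 CPM in those labelled WT. Vegfa, a vessel growth factor gene, was at 62.8 CPM in the cells labelled cKO and 24.6 CPM in those labelled WT (log2 ratio 1.32). Of 20 cholesterol and fatty acid synthesis genes, 8 were called higher and 2 lower in the cells labelled cKO, with a median log2 ratio of 0.39. Of 17 dissociation stress genes, 2 were called higher and 4 lower in the cells labelled cKO, with a median log2 ratio of -0.08, with the early response gene Fos at 581 CPM in the cells labelled cKO and 1277 CPM in those labelled WT (log2 ratio -1.13). Of 16 genes of the m6A machinery, 3 were called higher and 1 lower in the cells labelled cKO, with a median log2 ratio of -0.07. Besides Ythdf2, those higher were Cbll1 (log2 ratio 0.87), of the methyltransferase complex, and the reader gene Igf2bp2 (0.63, from 10 UMIs in the cells labelled cKO), and Fto, a demethylase gene, was lower (-0.64).

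Of 3221 genes eligible for naming, the 12 with the highest and the 12 with the lowest ratio are named. Upp1, which encodes uridine phosphorylase, was at 97.8 CPM in the cells labelled cKO and 6.80 CPM in those labelled WT (log2 ratio 3.66, 3.26 to 4.45), and AA467197 was at 101 CPM in the cells labelled cKO and 9.59 CPM in those labelled WT (log2 ratio 3.26). With cells thinned to 5000 UMIs the ratio of AA467197 was 0.83. Slamf8, a surface receptor gene of macrophages, was at 94.9 CPM in the cells labelled cKO and 14.5 CPM in those labelled WT (log2 ratio 2.63). Ass1, an arginine synthesis gene, was at 145 CPM in the cells labelled cKO and 23.5 CPM in those labelled WT (log2 ratio 2.57). Thbs1, a matrix protein gene, was at 143 CPM in the cells labelled cKO and 23.5 CPM in those labelled WT (log2 ratio 2.55), but its 98 UMIs in the cells labelled cKO came from 3 cells, and with a proliferation sum of at least 10 its ratio turned to -0.74. Ltb4r1, a leukotriene receptor gene, had a log2 ratio of 2.49, which turned to -2.59 under the stricter gate. Ifi205, Serpina3g, Iigp1 and C3 had log2 ratios of 2.44, 2.36, 2.29 and 2.27, and Cxcl9 and Ythdf2 complete the 12. Under the stricter gate the ratios of Upp1, Slamf8, Ass1, Ifi205, Serpina3g and Iigp1 were smaller, at 1.86, 1.24, 0.40, 1.24, 0.61 and 1.04. With every cell weighted equally that of Ythdf2 was 1.51.

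Among the lowest ratios, besides Igf1, Cxcl1, Pf4 and Fabp5, stood Cbr2, a carbonyl reductase gene, with 3 UMIs in the cells labelled cKO, at 4.38 CPM in the cells labelled cKO and 82.5 CPM in those labelled WT (log2 ratio -3.96, -6.52 to -2.68). Gas6, which bridges dying cells to the receptors MERTK and AXL, was at 14.6 CPM in the cells labelled cKO and 122 CPM in those labelled WT (log2 ratio -2.98, -4.13 to -2.18). Folr2, a folate receptor gene of resident macrophages, was at 27.7 CPM in the cells labelled cKO and 98.7 CPM in those labelled WT (log2 ratio -1.79, -2.57 to -1.17). Cxcl13, a B cell chemokine gene, had 3 UMIs in the cells labelled cKO and was at 4.38 CPM in the cells labelled cKO and 71.8 CPM in those labelled WT (log2 ratio -3.76, -6.32 to -2.48), with UMIs in 9 cells labelled WT. Pmp22, Cela1, Fcrls and Igfbp4 had log2 ratios of -2.50, -2.34, -2.13 and -1.89. With every cell weighted equally the ratios were -0.88 for Folr2 and -1.32 for Pmp22. With the thresholds read as raw UMIs they were -2.34 for Cbr2 and -1.27 for Igfbp4, under the stricter gate -1.10 for Cela1, and with a proliferation sum of at least 2 -0.82 for Fabp5.

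**Figure D5:**
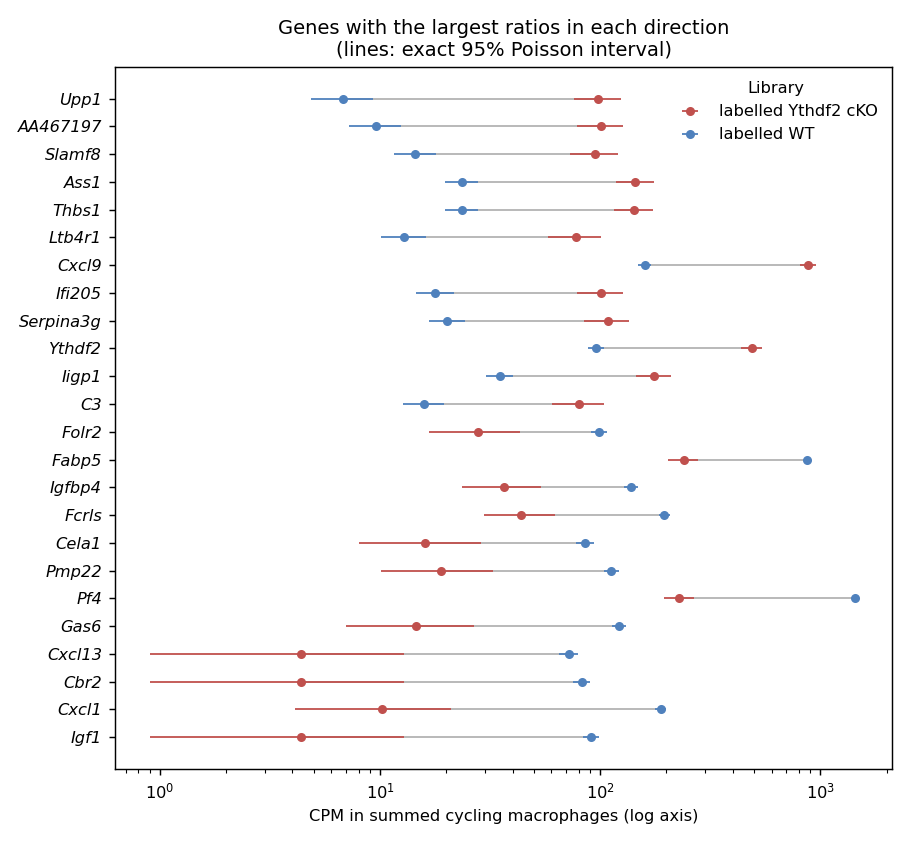
Level in summed cycling macrophages in CPM on a log axis (x axis), for the 12 genes with the highest and the 12 with the lowest ratio (y axis), in the library labelled cKO and the library labelled WT, with exact 95% Poisson intervals. Cxcl9 stands at 880.2 CPM in the cells labelled cKO and 159 CPM in those labelled WT, and Pf4 at 229 CPM in the cells labelled cKO and 1437 CPM in those labelled WT.

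Markers of other cell types were present at low levels, and their part in the results was not tested. The 12 T cell markers, each with a UMI in both libraries, summed to 342 CPM in the cells labelled cKO and 137 CPM in those labelled WT, against 6369 CPM in CD8 T cells labelled cKO and 5778 CPM in those labelled WT. All 8 measured ones were called higher in the cells labelled cKO. The 11 NK and cytotoxic markers, each with a UMI in both libraries, summed to 708 CPM in the cells labelled cKO and 295 CPM in those labelled WT, against 18494 CPM in NK cells labelled cKO and 12359.9 CPM in those labelled WT, and 9 of 10 measured were called higher. Under the stricter gate, which bars cells with Cd3d, Cd3e or Cd3g but names no NK marker, the median log2 ratio was 2.81 for T cell markers and 3.55 for NK markers, against 1.28 and 1.43 without it. Neutrophil markers summed to 282 CPM in the cells labelled cKO and 159 CPM in those labelled WT, and the UMIs of Retnlg and S100a9, 44 and 56 in the cells labelled cKO, each came from 1 cell. Melanocytic markers summed to 64.2 CPM in the cells labelled cKO and 94.5 CPM in those labelled WT, plasmacytoid dendritic cell markers to 182 CPM in the cells labelled cKO and 225 CPM in those labelled WT, and conventional dendritic cell markers to 80.3 CPM in the cells labelled cKO and 89.98 CPM in those labelled WT. Of the B cell markers, Cd79a, Pax5, Ebf1, Fcmr and Ighd were at 0 in the cells labelled cKO, and of the dendritic cell markers Flt3, Zbtb46, Siglech and Klk1 were. An alternative took out the highest doublet scores in a preset number, among them 2 cycling macrophages labelled cKO and 17 labelled WT. The median doublet score was 0.0769 in cycling macrophages against 0.0378 in all kept cells in the library labelled cKO. In the library labelled WT it was 0.0471 against 0.0352.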

How the data were processed

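Single-cell RNA was counted in 1 library labelled Ythdf2 cKO and 1 labelled WT, grouped by the labels. The deposited matrices hold UMI counts per gene and barcode, and per the submitters' processing notes the authors used Cell Ranger 5.0.1, Seurat 4.0.4 and the mm10 build. The matrix headers name cellranger 5.0.0. The libraries held 121321782 UMIs in the library labelled cKO and 128952491 in the library labelled WT, in 11398 barcodes in the library labelled cKO and 14404 in the library labelled WT.

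Gates, sums, CPM with a pseudocount of 1, and thinning to 5000 UMIs were computed with Python 3.11.15, numpy 2.4.6, scipy 1.17.1 and pandas 2.3.3, and were tested on simulated data. The gates of the report's setting were read per 10000 UMIs. The stricter gate added limits in raw UMIs, which depend on a cell's depth. Intervals are exact at 95% (Poisson for levels, Clopper-Pearson for shares, conditional binomial for ratios), and UMIs of a few cells are not independent molecules of the group. Doublets were left in. As an alternative, the kept cells with the highest Scrublet scores (scanpy 1.11.5) were taken out. Their number was preset from a rate of 0.8% per 1000 kept cells, with ties included, and is not a detected doublet rate. This took out 8.50% of kept cells in the library labelled cKO and 10.2% in the library labelled WT. Other alternatives changed the quality filter, gate, depth, pseudocount, low-value filter, weighting and scaling.

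Named genes are the 12 highest and 12 lowest ratios among genes outside the gate that reached 50 CPM in either library with 100 or more UMIs summed, where no other gated class held over 5 times that level. Mitochondrial, ribosomal, haemoglobin, antigen receptor, Y-linked and unnamed genes were left out. List members are examples, some chosen after their values were seen. The cells and the 39 gene lists were chosen with earlier results of these data known.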

Additional observations from a re-analysis of the deposited data

Results flagged for a closer look

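Of the genes in the lists, 12 stood out because their ratios had opposite signs in cycling and non-cycling macrophages, each with an interval clear of equality. The share of all genes with such opposite signs is not given here, so the number 12 is no result about the lists. The differences between the ratios were not tested, and each library stands alone. The signs rest on scaling to total UMIs, under which the median over all genes was -0.01 in cycling and -0.10 in non-cycling macrophages. C3ar1, Hmgb2 and Id2 lie close to that median in non-cycling cells, so their signs there depend on the scaling. Values are log2 ratios, labelled cKO over labelled WT.

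Among chemokine genes, Ccl4 was at -0.77 in cycling and 0.05 in non-cycling macrophages, Ccl3 at -0.62 in cycling and 0.09 in non-cycling macrophages and Cxcl2 at -0.58 in cycling and 0.04 in non-cycling macrophages. The early response genes Atf3 and Dusp1 were at -0.19 in cycling and 0.14 in non-cycling macrophages, and at -0.49 in cycling and 0.29 in non-cycling macrophages. C3ar1, a complement receptor gene, was at 0.40 in cycling and -0.10 in non-cycling macrophages, and Cfp, the properdin gene, at 0.62 in cycling and -0.57 in non-cycling macrophages. Lpl, the lipoprotein lipase gene, was at 0.20 in cycling and -0.79 in non-cycling macrophages, and Id2, a regulator gene, at 0.40 in cycling and -0.17 in non-cycling macrophages. The chromatin gene Hmgb2 was at 0.15 in cycling and -0.16 in non-cycling macrophages, and the nuclear lamina gene Lmnb1 at -0.38 in cycling and 0.33 in non-cycling macrophages. Tpi1, a glycolysis gene, was at -0.33 in cycling and 0.20 in non-cycling macrophages.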

How the results depend on the processing

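No paired analysis was possible because each group has 1 library and replicate numbers were given in accession order. Ratios are log2, labelled cKO over labelled WT, and the cause of each move was not tested. The strict gate (no raw UMI of lymphoid, neutrophil, melanocytic or plasmacytoid markers, at most 1 of Ly6c2) left 12 cells labelled cKO and 110 labelled WT. It gave 2896 genes higher and 2324 lower, against 1190 and 972 in the report. Its medians were 0.64 for MHC class II, 0.68 for monocyte, 0.61 for the interferon gamma response, -0.48 for the type I response, -0.043 for CSF1 regulators, -1.21 for alternative activation, -0.40 for inflammation, 0.23 for plasmacytoid markers, -0.97 for G2/M kinases, -0.95 for CDK inhibitors, -1.48 for dissociation stress, 2.81 for T cell and 3.55 for NK markers. Cxcl9 was at -1.82, Ltb4r1 at -2.59 and Thbs1 at -3.10. Cycling shares among macrophages were at -0.53, or -1.33 thinned. The ratio of cycling over non-cycling levels labelled cKO, over a gene set not named here, was 2.15, against 2.82.

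Cells thinned to 5000 UMIs gave 2006 genes higher and 2010 lower, with medians of 1.69 (MHC class II), 1.13 (interferon gamma) and -1.01 (scavenger). With every cell weighted equally, 1737 genes were lower, and these medians were 1.52, 1.28 and -0.96, with neutrophil markers at -0.28. No filter on low levels gave 2460 genes higher and 2667 lower, with 1.08 for MHC class II, -1.03 for scavenger and -0.24 for alternative activation. A pseudocount of 10 CPM gave 752 higher and 533 lower, and -1.001 for scavenger. For the same unnamed set it gave cycling over non-cycling ratios of 1.52 labelled cKO and 1.36 labelled WT, against 2.82 and 2.19. These are not the medians over all genes, which were 0.22 labelled cKO and 0.08 labelled WT. At most 5% mitochondrial UMIs gave 2.07 (MHC class II), 2.04 (monocyte), -1.77 (scavenger), -1.42 (neutrophil) and 0.94 (plasmacytoid). A proliferation sum of at least 10 gave 2.16 for MHC class II, 0.72 for plasmacytoid markers and -0.74 for Thbs1, and one of at least 2 gave 1.61 for MHC class II and -1.61 for thinned shares. Doublet removal gave 2.24 for MHC class II and 0.27 for plasmacytoid markers, whose median in the report's setting is -0.89 with Siglech and Klk1 at their counting bound. Later thresholds read as raw UMIs gave 1.77 for MHC class II. Thinning to 2000 UMIs gave -1.62 for thinned shares, and barcodes of at least 5000 UMIs gave -3.69 for shares of kept cells. The ratio of S-leaning shares ran between -1.97 and 1.05. Leaving out the deepest cell labelled cKO, chosen after seeing the data, turned no list past the 1.5-fold limit or named gene round, nor did keeping cells of at least 5000 UMIs or of at least 2 proliferation UMIs, also chosen then. With 24 cells labelled cKO at 5000 UMIs, low genes rest on few molecules.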
